A study of Mus musculus with 12 samples.

Results

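Transcripts of embryoids at day 8 (D8) were compared with those of D8 controls, gene by gene, beyond the marker genes used in the figures of the study. Of the 24946 genes in the deposited table, 13580 had a mean value above 1 in embryoids or in controls and were tested. The values are taken as TPM, transcript abundances scaled by transcript length and by library total, that the authors rounded to whole numbers, so levels can be compared between genes, and at 1 or 2 TPM the rounding is a large part of the value. Among the genes nearest to this minimum, 273 had a larger group mean of 1.33 and were kept, and 983 had a larger group mean of 1 and were left out.

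Bulk RNA was sequenced from 3 embryoid and 3 control libraries at D8, from a series of 12 libraries that also covers D7. By the labels, every library came from E14TG2a, an embryonic stem cell (ESC) line of the 129/ola strain, maintained with LIF, Chir99021 and PD03259021 and aggregated in hanging drops. Both groups were then kept in a serum-free medium with N2 and B27 supplements. For an embryoid, an aggregate started from 50 cells was held in BMP4 for 8 h and joined on day 3 to an untreated aggregate started from 100 cells. For a control, both aggregates were left untreated before they were joined. The labels give 10 ng/ml of BMP4 and pools of 12 embryoids per library, and the methods text of the study differs on both points. Each library is therefore an average over several aggregates and over every tissue in them, in culture.

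In the mouse embryo, BMP4 from the extraembryonic ectoderm starts the expression of WNT3 and NODAL in the epiblast, and cells that meet these signals pass through the primitive streak and become mesoderm or endoderm. Mesoderm gives rise to muscle, vessels, blood and the connective tissue matrix, and endoderm to the lining of the gut and its organs. Epiblast cells that do not meet the signals follow a neural course, and without later posterior signals that course is an anterior one, toward forebrain and its dorsal edge. The comparison asks which of these tissues and which pathways differ once a BMP4-treated aggregate has been joined to an untreated one.

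The labels and the values did not fully match on the cell line. Library descriptions begin with E14 for the embryoids and with WT for the controls. Hprt, an enzyme of purine salvage on chromosome X (52988078 to 53021660, GRCm38.p6), was listed at 0, 0 and 1 TPM in the embryoids and at 35, 33 and 32 TPM in the controls (adjusted p = 4.94e-09). As background that the labels do not give, E14TG2a is known as a line without working Hprt. The Y-linked Ddx3y stood at 4, 4 and 5 against 4, 4 and 4 TPM and was not called, and Xist, transcribed from an inactive X chromosome, was listed at 0 in all 6 libraries. Genes of chromosomes 6 and 8 had median log2 fold changes of 0.00 and 0.03, against -0.26 to -0.12 on the other autosomes and chromosome X. An effect of a different line or clone cannot be told apart from the effect of the BMP4-treated aggregate in any result that follows.

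Libraries of a group were alike. Pearson correlations of log2(TPM + 1) over the tested genes ran from 0.988 to 0.989 between controls, from 0.980 to 0.984 between embryoids and from 0.861 to 0.889 between the groups. Between 13561 and 13589 genes were above 0 in a control library and between 14207 and 14354 in an embryoid library. TPM keeps no read number, so sequencing depth is unknown and no counting error can be given.

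A gene was called when its adjusted p (limma on log2(TPM + 1), Benjamini-Hochberg over all 13580 genes) was below 0.05 and its log2 fold change exceeded 1 in size. Embryoids had 1416 genes called higher (10.4% of those tested) and 1359 called lower (10.0%), which together are 20.4%, and 10805 were not called. Over all tested genes, log2 fold changes had a median of -0.18 as deposited and 0.02 after median-of-ratios scaling, under which 1588 genes were called higher and 998 lower, so that 61.4% of calls were higher in place of 51%. For 10053 genes (74.0%) the 3 embryoid values did not overlap the 3 control values, with embryoids above in 25.2% and below in 48.8%. At 0 in all 3 controls stood 671 of the tested genes, which had no room to fall, and 616 of them were called higher. Another 193 were listed at 0 in every embryoid library, of which 137 were called lower. For such genes the values and the adjusted p are given with no fold, and list medians hold them at fitted values that depend on the pseudocount of 1. In bulk RNA, fewer cells of a type and less RNA per cell cannot be told apart, and this holds for every tissue below.

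Members of 45 lists of tissue and pathway genes, written from textbook knowledge with genes of the study's figures removed, are given by their counts and medians. The backgrounds of 10.4% and 10.0% do not hold for members at 0 in every control, which passed the minimum mean only through embryoids and could not be called lower. Such members were 9 of the 13 tested collagens, 7 of 13 in the pharyngeal arch list, 7 of 10 in the mesothelium list, 6 of 11 in the neurotransmitter list, 6 of 16 in the smooth muscle list and 6 of 21 in the mesenchymal matrix list. They were also 4 of 8 endoderm organ, 2 of 4 leukocyte, 4 of 9 platelet and 5 of 14 coagulation genes. Vessel (4 of 16), erythroid (5 of 20), simple epithelium (4 of 19) and some other lists held them too. Members at 0 in every embryoid library could not be called higher. These were 3 of 16 in the telencephalon list, 3 of 14 in the Cajal-Retzius list and 3 of 21 in the motile cilia list. The counts of these lists are a description and no test of the list. Lists of pharyngeal arch mesenchyme, interstitial collagens and smooth muscle had the highest medians, at 2.66, 2.64 and 2.6. Lists of cortical hem and choroid plexus, Cajal-Retzius neurons, and neuronal cytoskeleton and synapse had the lowest, at -2.23, -1.82 and -1.74. Among lists with tested members, FGF feedback, endoplasmic reticulum folding and DNA methylation had none called in either direction.

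**Figure D1:**
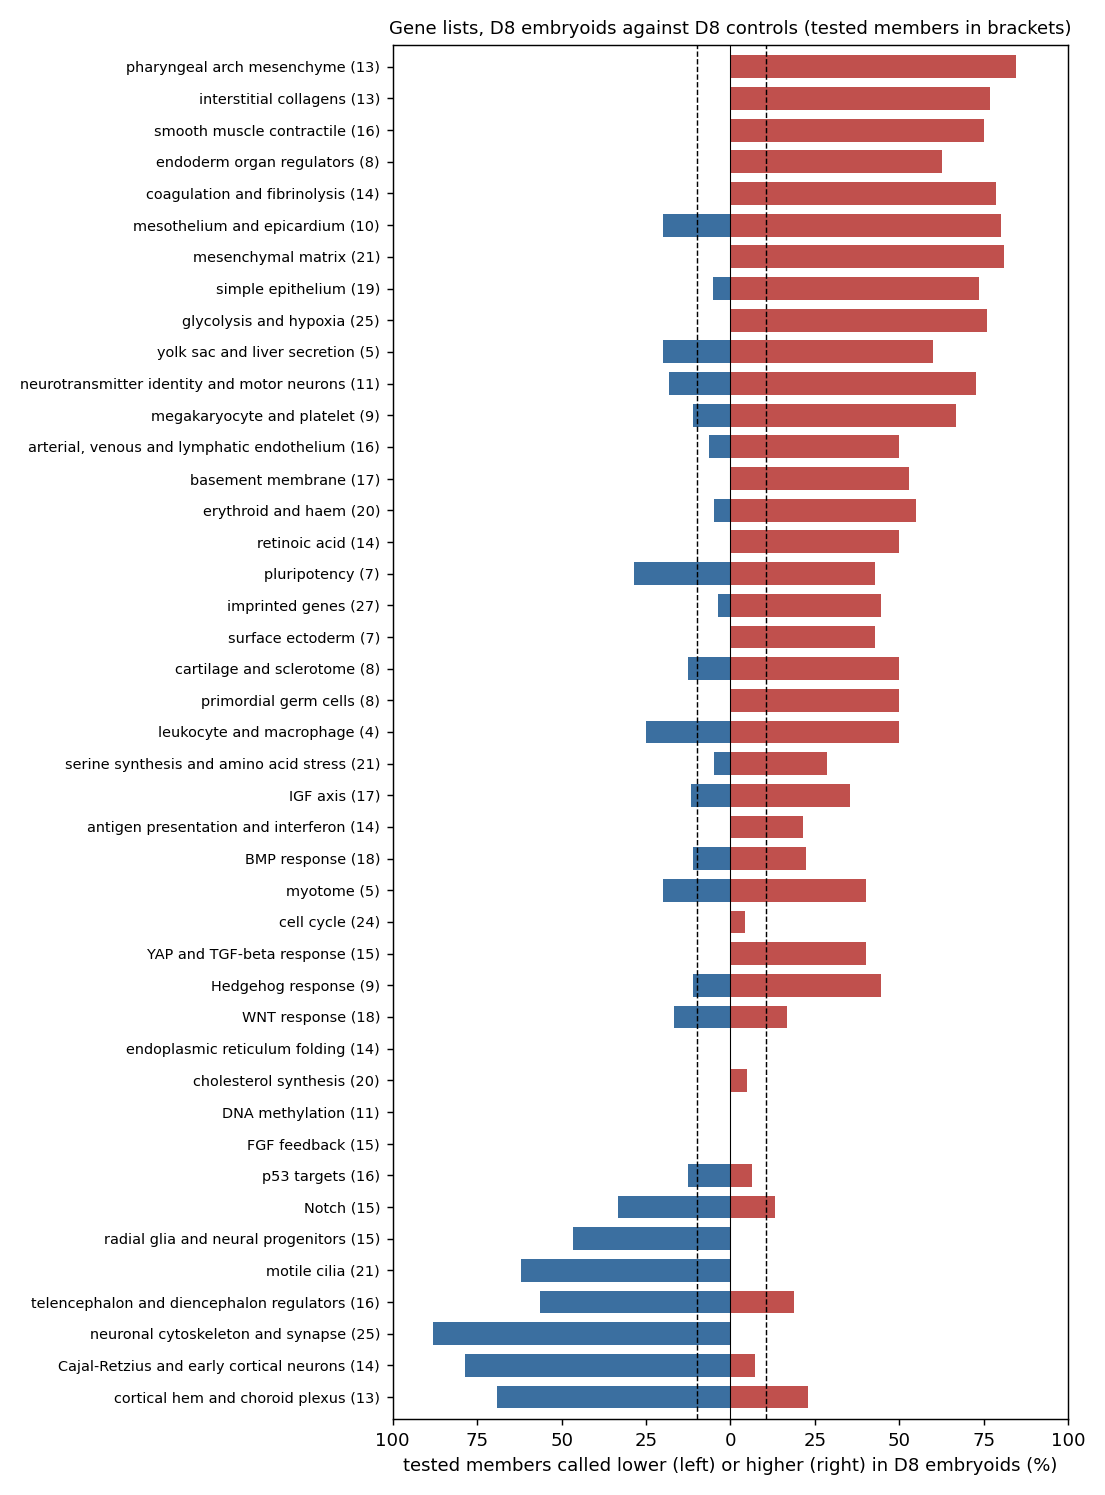
Percentage of the tested members of each gene list called higher (red, right) or lower (blue, left) in D8 embryoids, for lists with at least 4 tested members, ordered by their median log2 fold change with the number tested in brackets; dashed lines mark 10.4% and 10.0%, the percentages over all tested genes. Smooth muscle (12 of 16 members higher) and glycolysis and hypoxia (19 of 25 higher) have long bars to the right, and neuronal cytoskeleton and synapse (22 of 25 lower) a long bar to the left, and members at 0 in every control, such as 9 of the 13 collagens, could only have been called higher.

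In the list of contractile smooth muscle genes, 12 of 16 tested members were called higher in embryoids and none lower. Acta2, the actin of smooth muscle (chromosome 19, 34240336 to 34255585), was listed at 125, 212 and 156 TPM in embryoids and at 0 in every control (adjusted p = 2.37e-09). Des, which encodes the intermediate filament desmin of muscle, stood at 21, 23 and 15 TPM against 0 in every control (adjusted p = 3.46e-09). Myl9, a regulatory light chain of non-sarcomeric myosin, stood at 81, 103 and 56 against 6, 5 and 6 TPM (log2 fold change 3.56, SE 0.24, adjusted p = 2.32e-07). In these genes the groups did not overlap. Not every member was called. Flna, a crosslinker of actin filaments, overlapped between the groups at 212, 271 and 273 against 236, 226 and 222 TPM, and Cald1 stood at 74, 91 and 105 against 56, 53 and 53 TPM without being called (log2 fold change 0.71). Myh11, the myosin heavy chain of differentiated smooth muscle, was listed at 0 in all 6 libraries. Acta2, Des and tropomyosins are also made by the early heart, and the heart genes Tnni1 (251, 272 and 135 TPM) and Myl3 (186, 205 and 63 TPM) were listed at 0 in every control. Embryoid replicate 3 had the lowest Des, Myl9, Tnni1 and Myl3. How much of the smooth muscle list came from heart tissue was not tested.

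The interstitial collagen list holds the fibre-forming collagens of connective tissue and collagens of other kinds. It had 10 of 13 tested members called higher and none lower, and 9 of the 13 were at 0 in every control. The fibre-forming Col5a1 and Col11a1 were not called. Col3a1 (chromosome 1, 45311538 to 45349706) had the largest fitted change of any gene outside the study's figures, at 181, 341 and 359 TPM against 0 in every control (adjusted p = 5.1e-11). Col1a2 stood at 51, 117 and 128 TPM and Col1a1 at 23, 55 and 61 TPM, again against 0 in every control (adjusted p = 2.47e-09 and 1.29e-08). Embryoid replicate 1 held the lowest value of all 3 genes. Col2a1, the collagen of cartilage and notochord, which neural tissue also expresses early on, did not follow, at 34, 32 and 31 against 27, 26 and 27 TPM (log2 fold change 0.27, SE 0.14, adjusted p = 0.115). Summed over the list, collagens came to between 381 and 699 TPM in embryoids and to 46 or 47 in controls.

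Matrix proteins that assemble around these fibres were also higher, with 17 of 21 tested members called and none lower. Pcolce, which enhances the cleavage of fibrillar procollagen, stood at 44, 51 and 57 against 1, 2 and 1 TPM (log2 fold change 4.49, SE 0.25, adjusted p = 3.38e-08). Emilin1, of elastic fibres, stood at 24, 35 and 34 against 1, 1 and 1 TPM (log2 fold change 3.98, SE 0.13, adjusted p = 3.88e-10). Tnc, which encodes tenascin C, was at 7, 14 and 13 TPM against 0 in every control (adjusted p = 6.47e-08). The collagen chaperone Serpinh1 was high in both groups, at 509, 613 and 601 against 475, 491 and 485 TPM, and was not called (log2 fold change 0.24). Mfap2, of microfibrils, lay lower in embryoids at 58, 71 and 78 against 85, 93 and 94 TPM and was not called (log2 fold change -0.40).

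Basement membrane genes, which underlie every epithelium and vessel, were split, with 9 of 17 called higher, none lower and 8 not called. The linker protein Nid1 stood at 31, 37 and 43 against 6, 2 and 3 TPM (log2 fold change 3.11, SE 0.39, adjusted p = 3.83e-05). Nid2, its relative, stood at 53, 58 and 60 against 6, 6 and 5 TPM (log2 fold change 3.12, SE 0.16, adjusted p = 1.34e-08). Lama4, a laminin chain of vessels and muscle, stood at 12, 11 and 13 TPM against 0 in every control (adjusted p = 1.4e-09). Agrn, which encodes the proteoglycan agrin, went the other way, at 63, 67 and 64 against 128, 126 and 136 TPM, and ended just short of the fold threshold. It was called lower without embryoid replicate 2, without control replicate 1 and without control replicate 2. Sparc stood at 281, 373 and 393 against 246, 224 and 220 TPM and was not called (log2 fold change 0.59).

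The erythroid and haem list had 11 of 20 tested members called higher and 1 lower. Among the 11, Epor, at 3, 5 and 5 against 2, 1 and 2 TPM, had a log2 fold change of 1, on the threshold rather than above it. The embryonic globins differed most. Hba-x (zeta globin, chromosome 11, 32276600 to 32278116) stood at 117, 305 and 538 TPM against 0 in every control (adjusted p = 5.93e-06). Hbb-y (epsilon globin) stood at 72, 136 and 409 against 1, 1 and 1 TPM (log2 fold change 6.32, SE 0.72, adjusted p = 2.15e-05). Both globins were lowest in embryoid replicate 1 and highest in replicate 3. Alas2, the erythroid enzyme that opens haem synthesis, followed the same order of libraries at 4, 11 and 18 TPM against 0, 1 and 0 (log2 fold change 3.05, SE 0.52, adjusted p = 0.000345). Urod, an enzyme of haem synthesis that all cells use, overlapped between the groups at 98, 118 and 116 against 101, 102 and 101 TPM and was not called (log2 fold change 0.12). The adult beta globin Hbb-bs was listed at 0 in all 6 libraries. Lmo2 was the member that fell, at 13, 13 and 9 against 50, 57 and 57 TPM (log2 fold change -2.15, SE 0.13, adjusted p = 4.62e-08). It encodes a bridging factor known from blood and endothelial progenitors, and it is expressed outside blood as well.

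Platelet and megakaryocyte genes stood at low levels, 43 to 55 TPM summed over the list in embryoids and 9 to 11 in controls, with 6 of 9 tested members called higher and 1 lower. Clec1b, a receptor of platelets, stood at 16, 12 and 15 TPM and Pf4, a platelet chemokine, at 7, 6 and 10 TPM, both listed at 0 in every control (adjusted p = 1.77e-10 and 8.08e-07). Plek, a signalling protein of platelets and white cells, stood at 4, 4 and 6 TPM against 0 in every control (adjusted p = 1.8e-05). Gp1bb, of the von Willebrand factor receptor, was listed at 0 in every embryoid library and at 2, 1 and 2 TPM in controls (adjusted p = 0.000594). Of 16 leukocyte and macrophage genes, 4 could be tested, and 8 were listed at 0 in all 6 libraries, among them Ptprc (CD45) and Spi1. Laptm5 (2, 3 and 3 TPM, against 0 in every control, adjusted p = 1.18e-06) and Fcer1g (1, 1 and 2 TPM, against 0, adjusted p = 0.000101) were called higher. Fcer1g fell below the minimum mean without embryoid replicate 3, and its call was lost under quantile normalization. Coro1a, which binds actin in white cells, fell, at 7, 6 and 8 against 20, 20 and 18 TPM (log2 fold change -1.35, SE 0.11, adjusted p = 5.01e-07). The lysosomal Cd68 overlapped at 6, 8 and 7 against 4, 6 and 6 TPM. Summed, the leukocyte list came to 16 to 24 TPM in embryoids and 24 to 26 in controls.

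**Figure D2:**
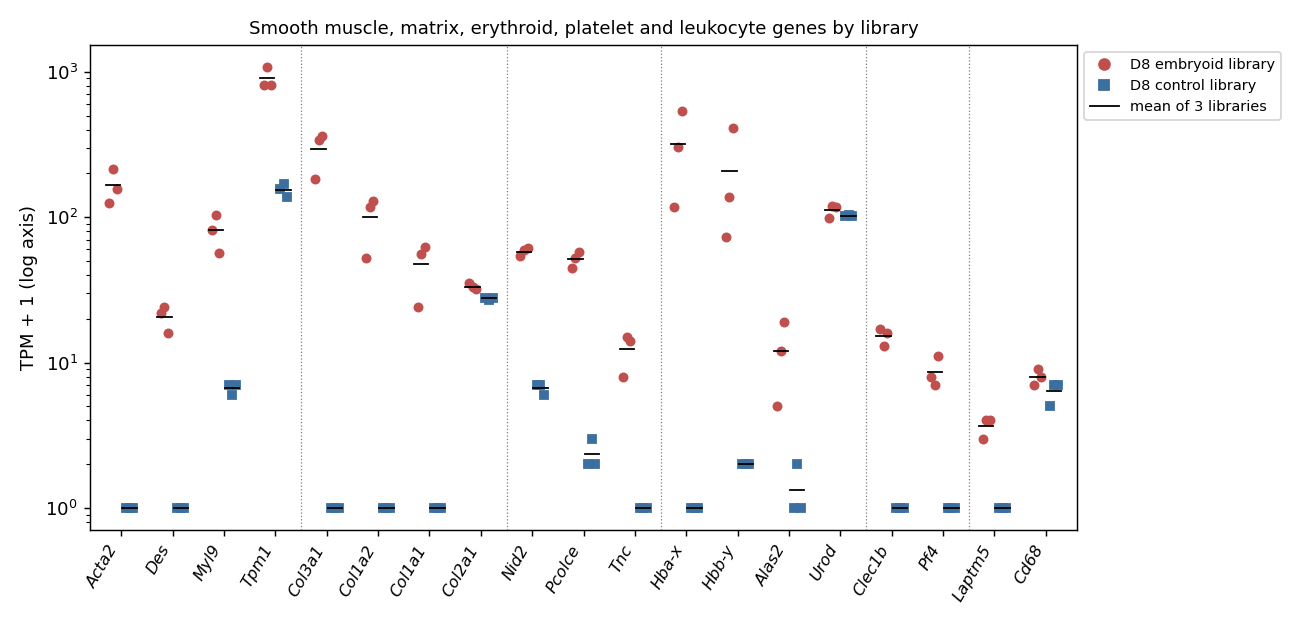
TPM + 1 on a log axis for smooth muscle, collagen, matrix, erythroid, platelet and leukocyte genes, separated by dotted lines, in each D8 embryoid library (red circles, replicates 1 to 3 from left to right) and each D8 control library (blue squares), with black lines at the means of 3 libraries. Acta2, Des, Col3a1, Col1a2, Col1a1 and Hba-x lie at 0 TPM in all 3 controls, Col2a1 lies close together in both groups, and the globins spread most between embryoid libraries.

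Vessel genes beyond the general endothelial markers gave 8 of 16 tested members called higher and 1 lower. The receptor Aplnr, of venous and angiogenic endothelium and early mesoderm, stood at 19, 30 and 26 against 1, 0 and 0 TPM (log2 fold change 4.34, SE 0.24, adjusted p = 3.18e-08). Flt4, the receptor for VEGF-C in early vessels and lymphatics, stood at 11, 10 and 11 TPM and the scavenger receptor Stab1 at 8, 8 and 8 TPM, both listed at 0 in every control (adjusted p = 2.67e-07 and 4.53e-09). The arterial ligand Efnb2, also made by neural tissue, was not called at 76, 72 and 71 against 55, 51 and 54 TPM (log2 fold change 0.45), and the venous factor Nr2f2 was not called at 41, 32 and 38 against 54, 51 and 53 TPM (log2 fold change -0.50). Cxcr4, a chemokine receptor of endoderm, vessels and migrating neurons, was called lower at 35, 20 and 26 against 59, 60 and 63 TPM (log2 fold change -1.17, SE 0.15, adjusted p = 3.51e-05). That call was lost under median-of-ratios scaling (-0.97), under quantile normalization (-0.98) and without embryoid replicate 2 (-0.98).

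Genes of coagulation and fibrinolysis had 11 of 14 tested members called higher and none lower. Anxa2 and S100a10 encode the subunits of a cell surface complex that binds plasminogen and its activator. Anxa2 stood at 210, 198 and 222 against 6, 8 and 7 TPM (log2 fold change 4.73, SE 0.16, adjusted p = 5.28e-10). S100a10 stood at 39, 64 and 68 against 3, 4 and 2 TPM (log2 fold change 3.85, SE 0.32, adjusted p = 1.36e-06). Serpinf1, which encodes a secreted serpin known for inhibiting vessel growth, stood at 50, 45 and 50 against 3, 3 and 3 TPM (log2 fold change 3.62, SE 0.10, adjusted p = 1.07e-10). The plasminogen activator Plat, at 44, 45 and 40 against 37, 38 and 35 TPM, and the serpin Serpine2, at 100, 88 and 103 against 122, 124 and 116 TPM, were not called.

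Epithelial genes, whose products line the gut tube, the surface ectoderm and other simple sheets, had 14 of 19 tested members called higher and 1 lower. The paired keratins moved together. Krt8 stood at 69, 138 and 146 against 7, 7 and 5 TPM (log2 fold change 3.95, SE 0.35, adjusted p = 3.09e-06). Krt18 stood at 65, 107 and 118 against 6, 7 and 4 TPM (log2 fold change 3.85, SE 0.30, adjusted p = 1.02e-06). Krt19 stood at 29, 40 and 35 against 0, 1 and 1 TPM (log2 fold change 4.48, SE 0.31, adjusted p = 2.56e-07). Embryoid replicate 1 was the lowest of the embryoid libraries in all 3 keratins. Cdh1, the cadherin of epithelia, did not rise with them and lay below the controls at 16, 25 and 26 against 34, 35 and 34 TPM without being called (log2 fold change -0.63, SE 0.17). Jup, a plaque protein of adhesive junctions, was not called at 22, 33 and 31 against 17, 18 and 19 TPM. Tjp3, a tight junction scaffold, fell, at 3, 2 and 2 against 7, 7 and 7 TPM (log2 fold change -1.28, SE 0.11, adjusted p = 1.23e-06).

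Regulators of endoderm organs had 5 of 8 tested members called higher, at low levels. Nkx2-3, a homeobox gene of pharyngeal endoderm and gut wall, stood at 5, 11 and 12 TPM against 0 in every control (adjusted p = 7.45e-06). Isl1, of pharyngeal and cardiac progenitors and motor neurons, stood at 10, 13 and 12 against 1, 1 and 1 TPM (log2 fold change 2.66, SE 0.17, adjusted p = 1.15e-07). Cdx4, of the posterior body, stood at 1, 5 and 6 TPM against 0 (adjusted p = 0.000801). Nkx2-1 (lung and thyroid) and Pdx1 (pancreas) were listed at 0 in all 6 libraries. Of 22 genes of yolk sac and liver secretion only 5 could be tested, and 9 were listed at 0 in all 6 libraries, including the albumin gene Alb and Apob. Apoe, which carries lipids and is made by many tissues, stood at 71, 75 and 79 against 26, 26 and 22 TPM (log2 fold change 1.57, SE 0.15, adjusted p = 2.65e-06). Rbp4, the plasma carrier of retinol, stood at 21, 20 and 29 against 1, 2 and 1 TPM (log2 fold change 3.39, SE 0.32, adjusted p = 2.46e-06). Ttr, which is secreted by yolk sac and liver and also by choroid plexus, fell, at 5, 15 and 7 against 77, 78 and 74 TPM (log2 fold change -3.08, SE 0.61, adjusted p = 0.00106).

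Surface ectoderm markers were low, with 3 of 7 tested members called higher and summed levels of 30 to 37 TPM in embryoids and 15 in each control. Tfap2a, a regulator of surface ectoderm and neural crest, stood at 7, 6 and 9 against 1, 1 and 1 TPM (log2 fold change 2.04, SE 0.16, adjusted p = 5.64e-07). Trp63, the regulator of stratified epithelium, stood at 2, 3 and 3 TPM against 0 in every control (adjusted p = 3.28e-06). Grhl3 overlapped between the groups at 7, 9 and 10 against 8, 8 and 8 TPM.

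Mesenchyme of the pharyngeal arches, which forms much of the face and outflow tract, had 11 of 13 tested members called higher and none lower, and 7 of the 13 were at 0 in every control. Ednra, the receptor for endothelin in arch mesenchyme, stood at 26, 28 and 32 against 1, 1 and 1 TPM (log2 fold change 3.89, SE 0.11, adjusted p = 9.84e-11). Alx1, a homeobox gene of craniofacial mesenchyme, stood at 10, 7 and 10 TPM against 0 in every control (adjusted p = 2.9e-09). Msx1 stood at 30, 15 and 25 against 2, 2 and 2 TPM (log2 fold change 2.97, SE 0.18, adjusted p = 7.38e-08). Prrx1, of limb and face mesenchyme, was not called as deposited, at 18, 14 and 17 against 9, 9 and 8 TPM (log2 fold change 0.84), and was called under median-of-ratios scaling (1.03).

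Mesothelium, the covering layer of the heart and body cavities, had 8 of 10 tested members called higher and 2 lower, and 7 of the 10 were at 0 in every control. Tcf21, of epicardium and branchial mesoderm, stood at 8, 12 and 12 TPM and Bnc1 at 4, 8 and 10 TPM, both against 0 in every control (adjusted p = 2.17e-07 and 1.2e-06). The members that fell, Gpm6a (7, 5 and 4 against 38, 38 and 37 TPM, log2 fold change -2.64, SE 0.18, adjusted p = 1.87e-07) and Lhx9 (8, 2 and 6 against 28, 27 and 30 TPM, log2 fold change -2.35, SE 0.31, adjusted p = 3.82e-05), are also expressed in neurons and in the diencephalon.

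Skeletal tissues were scarce. Myod1, Myf5 and Myf6, which commit cells to skeletal muscle, were listed at 0 in all 6 libraries, as was the cartilage proteoglycan Acan. Of the myotome list 5 of 15 members could be tested. Mylpf, the fast myosin light chain, was called higher at 8, 12 and 9 against 4, 4 and 3 TPM (log2 fold change 1.18, SE 0.19, adjusted p = 0.000195). Eya4, a coactivator of several tissues, fell, at 2, 1 and 1 against 13, 13 and 13 TPM (log2 fold change -2.61, SE 0.18, adjusted p = 1.8e-07). In the cartilage list Hapln1, a matrix link protein, was called at 4, 4 and 4 TPM against 0 in every control (adjusted p = 1.23e-08). Sox9, the master regulator of cartilage, was not called at 6, 5 and 6 against 10, 9 and 9 TPM (log2 fold change -0.63). Its partner Sox6 fell, at 5, 5 and 6 against 20, 18 and 18 TPM (log2 fold change -1.64, SE 0.14, adjusted p = 1.06e-06).

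Of 12 germ cell genes, Ddx4, Dazl and Prdm14 were listed at 0 in all 6 libraries, and 4 of the 8 tested were called higher. The largest difference was in Ifitm1, at 34, 86 and 85 against 3, 2 and 2 TPM (log2 fold change 4.28, SE 0.34, adjusted p = 1.24e-06). Ifitm3 stood at 14, 20 and 23 against 1, 2 and 1 TPM (log2 fold change 3.10, SE 0.21, adjusted p = 1.81e-07). Early mesoderm also makes these membrane proteins. Of the pluripotency list 7 of 16 members could be tested. Tdgf1, the NODAL coreceptor, stood at 3, 7 and 3 TPM against 0 in every control (adjusted p = 3.85e-05). Esrrb, a nuclear receptor of ESCs, fell, at 1, 2 and 1 against 10, 11 and 11 TPM (log2 fold change -2.35, SE 0.14, adjusted p = 6.91e-08). Zfp42 and Utf1 were listed at 0 in all 6 libraries.

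Of 16 regulators of telencephalon and diencephalon, 9 were called lower in embryoids and 3 higher. Of the 3, Barhl1 overlapped between the groups at 7, 1 and 3 against 1, 1 and 1 TPM (adjusted p = 0.0486 by limma). Its log2 fold change of 1 lay on the threshold rather than above it, so by the rule it is not a clear call. Dmrta2, a regulator of the dorsal telencephalon, was listed at 0 in every embryoid library and at 40, 34 and 35 TPM in controls (adjusted p = 2.85e-12). Emx1, of the cerebral cortex, stood at 22, 19 and 22 TPM in controls and at 0 in all 3 embryoid libraries (adjusted p = 1.27e-10). Dlx1 and Dlx2, of ventral forebrain but also of the branchial arches, went the other way at 2, 4 and 4 and at 2, 3 and 4 TPM, listed at 0 in every control (adjusted p = 5.71e-06 and 5.57e-06).

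The cortical hem is the signalling edge of the dorsal telencephalon, and the choroid plexus that makes cerebrospinal fluid forms beside it. Here 9 of 13 tested members were called lower and 3 higher. Rspo2, a secreted enhancer of WNT signalling (chromosome 15, 43020788 to 43171594), had the most negative log2 fold change among genes outside the study's figures, at 1, 2 and 1 TPM in embryoids and 416, 417 and 433 in controls (log2 fold change -7.53, SE 0.13, adjusted p = 1.97e-12). Its relative Rspo3 stood at 19, 16 and 17 against 228, 245 and 240 TPM (log2 fold change -3.71, SE 0.13, adjusted p = 8.78e-10). Folr1, the folate receptor of choroid plexus, stood at 1, 2 and 3 against 43, 49 and 48 TPM (log2 fold change -4.04, SE 0.22, adjusted p = 2.49e-08), and Ttr, given above, fell as well. Wnt5a was not called and overlapped at 13, 22 and 23 against 14, 14 and 13 TPM. Enpp2 was called higher at 8, 8 and 10 against 2, 2 and 3 TPM (log2 fold change 1.54, SE 0.13, adjusted p = 1.15e-06). Other choroid plexus genes, among them Kl and Kcnj13, were listed at 0 in all 6 libraries.

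Cajal-Retzius neurons are the earliest neurons of the cortex and arise from the hem. Of 14 tested genes, 11 were called lower and 1 higher. Trp73 and Tbr1 were listed at 0 in every embryoid library, with 71, 68 and 75 and with 40, 31 and 36 TPM in controls (adjusted p = 6.4e-13 and 1.75e-11). Calb2, a calcium buffer of these neurons, stood at 8, 5 and 5 against 194, 150 and 202 TPM (log2 fold change -4.72, SE 0.17, adjusted p = 9.75e-10). The adhesion protein Cntnap2 stood at 11, 5 and 7 against 180, 178 and 194 TPM (log2 fold change -4.47, SE 0.19, adjusted p = 3.6e-09). Ndnf, which Cajal-Retzius cells express along with several mesodermal tissues, was the exception, at 7, 6 and 6 TPM against 0 in every control (adjusted p = 5.4e-09).

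Genes for building motile cilia were lower in embryoids, 13 of 21 tested members called lower and none higher. Regulators of multiciliated cells had the largest fitted changes of the list. Mcidas (chromosome 13, 112993581 to 113000394) stood at 1, 0 and 0 against 25, 25 and 28 TPM (adjusted p = 1.26e-08). Gmnc stood at 1, 0 and 0 against 25, 23 and 25 TPM (adjusted p = 1.34e-08). Ccno stood at 2, 1 and 1 against 34, 38 and 38 TPM (log2 fold change -4.04, SE 0.15, adjusted p = 9.58e-10). The dynein genes Dnah5 and Dnah9 were listed at 0 in all 6 libraries. Tppp3, which binds tubulin in cilia and elsewhere, did not differ beyond the spread at 82, 52 and 57 against 63, 60 and 61 TPM.

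**Figure D3:**
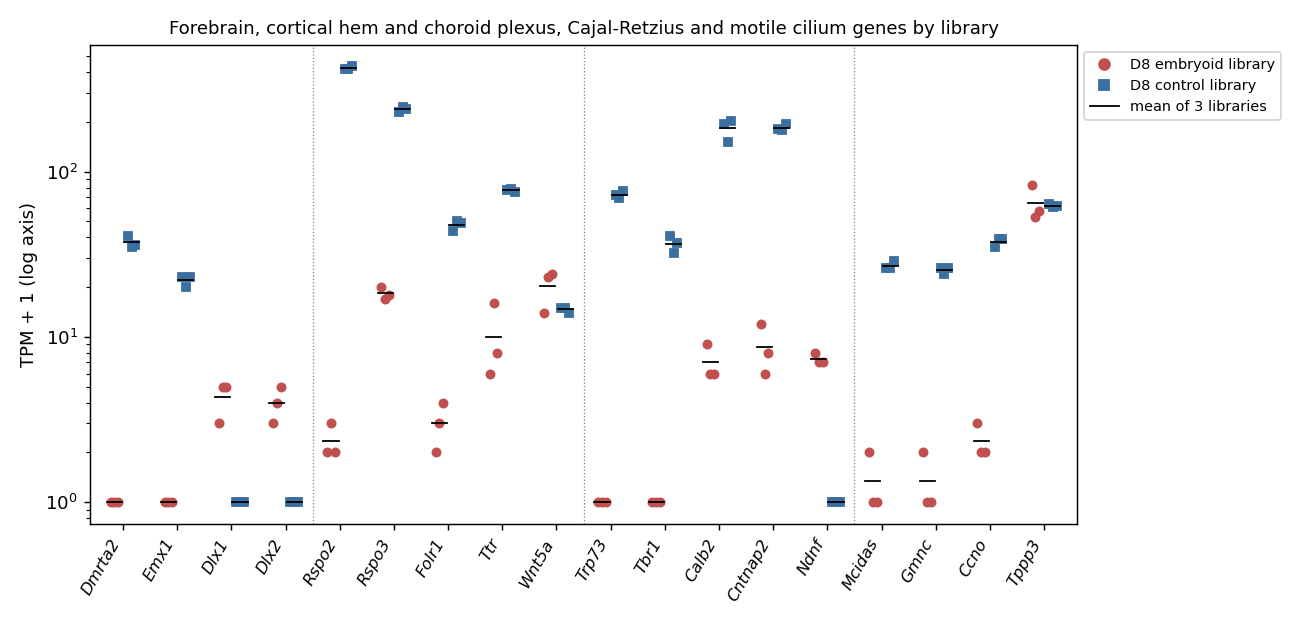
TPM + 1 on a log axis for regulators of forebrain, genes of cortical hem and choroid plexus, of Cajal-Retzius neurons and of motile cilia, separated by dotted lines, in each D8 embryoid library (red circles) and each D8 control library (blue squares), with black lines at the means of 3 libraries. Rspo2 lies at 1 or 2 TPM in embryoids and above 400 TPM in controls, and Dlx1, Dlx2 and Ndnf are the genes with all 3 controls at 0.

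Several of the 15 largest decreases outside the study's figures were in no list of this kind. Mlc1, a membrane protein of astrocyte lineage cells, stood at 3, 2 and 2 against 72, 79 and 80 TPM (log2 fold change -4.56, SE 0.11, adjusted p = 2.43e-11). Islr2, of growing axons, stood at 4, 2 and 2 against 104, 92 and 107 TPM (log2 fold change -4.84, SE 0.26, adjusted p = 2.7e-08). Pthlh, the parathyroid hormone related peptide, stood at 3, 1 and 1 against 52, 56 and 58 TPM (log2 fold change -4.48, SE 0.21, adjusted p = 7.86e-09). Slc6a11, a transporter of GABA, and the urea transporter Slc14a2 were listed at 0 in every embryoid library, with 28, 27 and 31 and with 38, 37 and 44 TPM in controls (adjusted p = 2.72e-12 and 1.5e-10). The groups lay far apart in all 5 genes.

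Genes shared by most neurons were lower too. Of 25 tested genes of the neuronal cytoskeleton and synapse, 22 were called lower and none higher. Stmn4, a regulator of microtubules, stood at 16, 8 and 12 against 127, 115 and 127 TPM (log2 fold change -3.30, SE 0.28, adjusted p = 1.79e-06). Its relative Stmn3 stood at 39, 22 and 26 against 229, 216 and 247 TPM (log2 fold change -2.99, SE 0.20, adjusted p = 2.79e-07). Ina, a neurofilament protein, stood at 15, 9 and 9 against 84, 70 and 79 TPM (log2 fold change -2.75, SE 0.20, adjusted p = 3.17e-07). In these genes embryoid replicate 1 was the highest of the embryoid libraries and still far below the controls. Vamp2, of synaptic vesicles and other membranes, was not called at 67, 61 and 61 against 88, 90 and 93 TPM (log2 fold change -0.51), nor was the neurofilament gene Nefm at 44, 41 and 39 against 76, 74 and 71 TPM (log2 fold change -0.82). The abundant tubulin gene Tuba1a stood at 4522, 4024 and 4164 against 9188, 9129 and 9267 TPM (log2 fold change -1.12, SE 0.04, adjusted p = 9.75e-10), a call lost under median-of-ratios scaling and quantile normalization.

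Genes of neurotransmitter identity and of spinal and motor neurons had 8 of 11 tested members called higher and 2 lower, with sums over the list of 30 to 38 TPM in embryoids and 9 to 11 in controls. At 0 in every control were 6 of the 11. Isl1, given above, was the largest increase of the list. Gata3, of V2b interneurons and other tissues, stood at 2, 3 and 3 TPM and Pax8, of spinal interneurons, ear and kidney, at 2, 2 and 2 TPM, both listed at 0 in every control (adjusted p = 1.13e-06 and 3.76e-05). Slc17a6, the vesicular glutamate transporter, was listed at 0 in every embryoid library and at 3, 3 and 3 TPM in controls (adjusted p = 1.3e-05). Under quantile normalization 3 members in place of 8 were called higher.

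Radial glia and neural progenitor genes had 7 of 15 tested members called lower and none higher. The chondroitin sulfate proteoglycan Ncan stood at 5, 3 and 4 against 24, 20 and 22 TPM (log2 fold change -2.22, SE 0.22, adjusted p = 3.05e-06). The phosphatase Ptprz1 stood at 4, 4 and 5 against 27, 22 and 22 TPM (log2 fold change -2.21, SE 0.18, adjusted p = 7.36e-07). The chloride channel gene Ttyh1 stood at 11, 9 and 9 against 73, 67 and 74 TPM (log2 fold change -2.77, SE 0.19, adjusted p = 1.72e-07). The other 8 members were not called, among them Mfge8 at 103, 109 and 114 against 90, 90 and 95 TPM and Dbi at 207, 222 and 205 against 186, 202 and 196 TPM.

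Retinoic acid patterns the trunk and hindbrain, and its pathway genes had 7 of 14 tested members called higher and none lower, or 10 higher under median-of-ratios scaling. Aldh1a2, the enzyme that makes retinoic acid in paraxial and lateral mesoderm (chromosome 9, 71215789 to 71296243), stood at 174, 117 and 167 TPM against 0 in all 3 controls (adjusted p = 5.54e-10). Rarg, a receptor, stood at 10, 16 and 18 against 1, 1 and 1 TPM (log2 fold change 2.93, SE 0.19, adjusted p = 9.7e-08). Cyp26a1, an enzyme that breaks retinoic acid down, stood at 2, 2 and 3 TPM against 0 in every control (adjusted p = 1.03e-05). The binding protein Crabp2 was high in both groups, at 1069, 798 and 816 against 1241, 1239 and 1296 TPM, and was not called (log2 fold change -0.51), nor was the common partner receptor Rxra at 58, 59 and 59 against 56, 56 and 57 TPM.

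Targets of BMP signalling did not move as a group, with 4 of 18 called higher and 2 lower. The immediate targets of the Id family, inhibitors of basic helix-loop-helix factors, were split. Id3 fell, at 442, 389 and 429 against 1150, 1181 and 1260 TPM (log2 fold change -1.51, SE 0.06, adjusted p = 3.58e-09). Id4 fell too, at 7, 6 and 5 against 32, 22 and 23 TPM (log2 fold change -1.92, SE 0.22, adjusted p = 1.33e-05). Id1 overlapped at 166, 136 and 155 against 174, 163 and 181 TPM, and Id2 stood at 200, 157 and 178 against 121, 121 and 126 TPM without being called (log2 fold change 0.53). Grem1, a secreted BMP antagonist, stood at 5, 5 and 6 TPM against 0 in every control (adjusted p = 1.96e-06). Bambi, a decoy receptor, stood at 13, 14 and 14 against 3, 3 and 3 TPM (log2 fold change 1.87, SE 0.18, adjusted p = 2.61e-06).

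WNT targets and inhibitors gave 3 of 18 called higher and 3 lower. Axin2, a feedback inhibitor induced by WNT in many tissues, fell, at 66, 33 and 52 against 130, 133 and 146 TPM (log2 fold change -1.47, SE 0.20, adjusted p = 6.14e-05). The WNT-responsive inhibitor Apcdd1 fell as well, at 5, 4 and 4 against 27, 27 and 27 TPM (log2 fold change -2.40, SE 0.11, adjusted p = 5.88e-09). The target Sp5 fell, at 5, 3 and 4 against 14, 13 and 15 TPM (log2 fold change -1.60, SE 0.15, adjusted p = 1.63e-06). Notum, which inactivates WNT ligands, was called higher at 9, 5 and 6 against 1, 1 and 1 TPM (log2 fold change 1.90, SE 0.20, adjusted p = 5.05e-06). The inhibitors Sfrp5 and Dkk2 were called higher at 3, 6 and 4 and at 4, 3 and 5 TPM, listed at 0 in every control (adjusted p = 5.3e-06 and 8.05e-07).

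Of 9 tested members of the Hedgehog list, 4 were called higher and 1 lower. Gli1, the transcriptional target most used as a readout of the pathway (chromosome 10, 127329882 to 127341579), stood at 22, 31 and 34 against 1, 2 and 1 TPM (log2 fold change 3.69, SE 0.27, adjusted p = 2.94e-07). The receptor and feedback target Ptch1 stood at 40, 60 and 49 against 9, 7 and 7 TPM (log2 fold change 2.54, SE 0.16, adjusted p = 7.16e-08). Gli3, the main repressor of the pathway, was called lower at 22, 19 and 21 against 52, 48 and 46 TPM (log2 fold change -1.20, SE 0.19, adjusted p = 0.000163), a call lost under median-of-ratios scaling. The transducer Smo stood at 61, 59 and 62 against 77, 74 and 74 TPM and was not called. The target Hhip, which binds Hedgehog ligands, and Nkx2-2, a factor of the ventral neural tube, were listed at 0 in all 6 libraries.

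Notch genes had 2 of 15 called higher and 5 lower. Hes5, the target of Notch in neural progenitors, fell, at 40, 28 and 26 against 124, 121 and 136 TPM (log2 fold change -2.01, SE 0.20, adjusted p = 4.06e-06). Hey1 fell, at 18, 21 and 15 against 46, 46 and 47 TPM (log2 fold change -1.33, SE 0.11, adjusted p = 9.13e-07). Their relatives Hey2 and Heyl rose. Hey2 stood at 10, 7 and 9 against 2, 1 and 2 TPM (log2 fold change 1.87, SE 0.17, adjusted p = 1.38e-06). Heyl stood at 6, 4 and 4 TPM against 0 in every control (adjusted p = 1.57e-06). None of the 15 FGF feedback genes was called by limma at an adjusted p below 0.05 and a log2 fold change above 1 in size. At an adjusted p below 0.05 were 10 of the 15, which missed only the fold threshold, beside 9366 of all 13580 tested genes. Under median-of-ratios scaling 2 of the 15 were called higher. Among the 10 were Dusp6, a phosphatase induced by FGF, at 65, 80 and 88 against 48, 50 and 46 TPM (log2 fold change 0.67, SE 0.14), and the receptor Fgfr1 at 46, 48 and 48 against 68, 65 and 64 TPM (log2 fold change -0.46, SE 0.09).

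Genes of TGF-beta and YAP response had 6 of 15 tested members called higher and none lower. Tgfbi, a matrix protein named for its induction by TGF-beta, stood at 71, 97 and 91 TPM against 0 in every control (adjusted p = 2.72e-12). The ligand Tgfb2 stood at 23, 29 and 31 against 1, 1 and 1 TPM (log2 fold change 3.83, SE 0.24, adjusted p = 7.84e-08). The receptor Tgfbr2 stood at 9, 11 and 11 against 1, 1 and 1 TPM (log2 fold change 2.50, SE 0.12, adjusted p = 8.29e-09). The YAP partners Amotl1, at 41, 47 and 46 against 33, 32 and 32 TPM, and Amotl2, at 28, 26 and 27 against 36, 35 and 37 TPM, were not called. Of the same list, Cyr61 was called higher at 24, 34 and 34 against 7, 6 and 7 TPM (log2 fold change 2.03, SE 0.16, adjusted p = 4.1e-07). Ankrd1 was called higher at 4, 4 and 1 TPM against 0 in every control. Ctgf overlapped between the groups at 9, 7 and 6 against 9, 10 and 9 TPM and was not called.

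**Figure D4:**
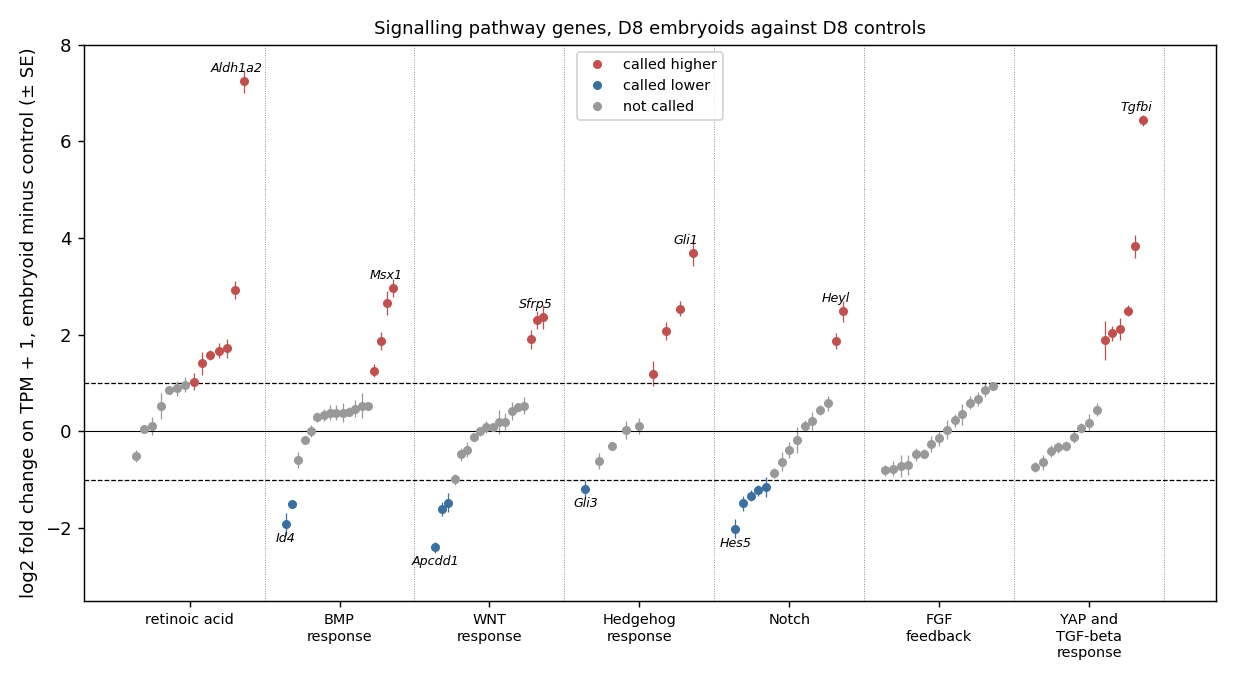
Log2 fold change of TPM + 1, embryoid minus control at D8, with SE, for the tested members of 7 signalling lists, coloured by call, with dashed lines at 1 and -1; genes listed at 0 in every control, such as Aldh1a2 and Tgfbi, are plotted at fitted values that depend on the pseudocount. Points of the FGF feedback list all lie between the dashed lines, while retinoic acid, Hedgehog and the TGF-beta list reach far above them.

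Glycolysis turns glucose into pyruvate and, when oxygen is short or growth is fast, lactate, and many of its enzymes are induced by the hypoxia-inducible factor (HIF). Of 25 tested genes of glucose uptake, glycolysis and the hypoxia response, 19 were called higher and none lower, and the groups did not overlap in any of the 19. Summed, the list came to between 20394 and 22216 TPM in embryoids and between 7667 and 9020 TPM in controls. Ldha, which reduces pyruvate to lactate (chromosome 7, 46842274 to 46855627), stood at 3727, 3408 and 3320 against 353, 484 and 255 TPM (log2 fold change 3.30, SE 0.19, adjusted p = 1.43e-07), a ratio of means of 9.57. Slc16a3, which exports lactate, stood at 136, 111 and 115 against 6, 15 and 4 TPM (log2 fold change 3.88, SE 0.35, adjusted p = 3.5e-06). Ndrg1, a hypoxia-induced gene, stood at 28, 21 and 30 against 2, 3 and 1 TPM (log2 fold change 3.23, SE 0.21, adjusted p = 1.32e-07). Control replicate 2 was the highest control in these 3 genes and in Aldoa, Pgk1 and Eno1 as well.

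Among the enzymes of the pathway itself, in the order of their reactions, Hk2 stood at 71, 63 and 68 against 18, 20 and 16 TPM (log2 fold change 1.85, SE 0.13, adjusted p = 1.64e-07). Hk1, the hexokinase of most resting tissues, overlapped at 39, 41 and 32 against 38, 37 and 35 TPM. Gpi1 was not called at 596, 514 and 526 against 346, 377 and 340 TPM (log2 fold change 0.62). Aldoa stood at 2204, 1994 and 1998 against 472, 574 and 465 TPM (log2 fold change 2.04, SE 0.09, adjusted p = 4.94e-09), the aldolase step. Gapdh, often used as a reference gene, stood at 3358, 3171 and 3113 against 1877, 2026 and 1867 TPM and passed the p threshold but not the fold threshold (log2 fold change 0.74, SE 0.04, adjusted p = 5.31e-08). Pgk1, the first step to yield ATP, stood at 2770, 2239 and 2337 against 790, 940 and 724 TPM (log2 fold change 1.58, SE 0.12, adjusted p = 7.2e-07). Eno1 stood at 2461, 2473 and 2572 against 899, 971 and 801 TPM (log2 fold change 1.49, SE 0.10, adjusted p = 1.79e-07), which is uncertain because reads may be shared with the near-identical Eno1b. Pkm was not called at 2501, 2427 and 2411 against 1635, 1687 and 1576 TPM (log2 fold change 0.58). Ldhb, the other lactate dehydrogenase, named after its values were seen, stood at 516, 444 and 508 against 1083, 1099 and 1109 TPM (log2 fold change -1.17, SE 0.08, adjusted p = 1.44e-07), a call lost under median-of-ratios scaling.

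**Figure D5:**
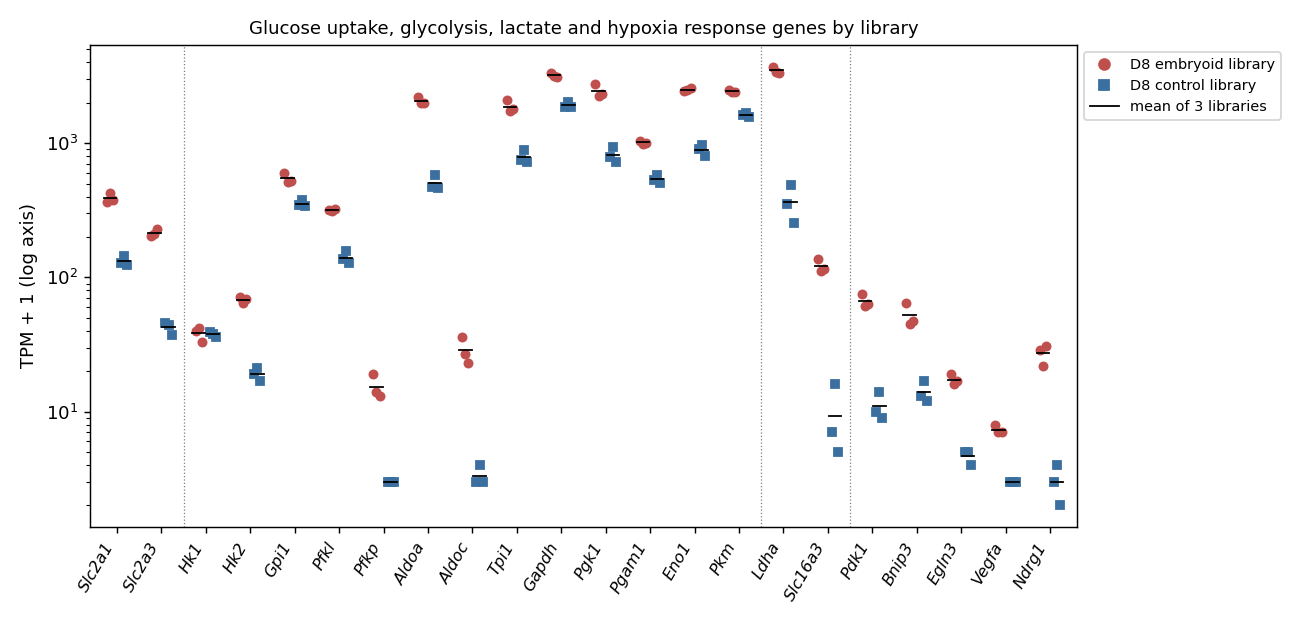
TPM + 1 on a log axis for glucose transporters, enzymes of glycolysis in the order of the pathway, lactate handling and hypoxia response genes, separated by dotted lines, in each D8 embryoid library (red circles) and each D8 control library (blue squares), with black lines at the means of 3 libraries. Embryoids lie above controls in every gene shown except Hk1, and the widest gaps are at Ldha, Slc16a3 and Ndrg1.

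HIF binds DNA at a core of ACGTG or GCGTG, so the 250 bases before the transcription start of these genes were searched for both on either strand, in RefSeq promoters of GRCm38.p6. ACGTG overlaps the CACGTG element that MYC and other basic helix-loop-helix factors bind. ACGTG was found in 13 of the 23 list members with a promoter entry (56.5%), in 25.1% of the 10380 tested genes with one and in 18.5% of all 27025 genes with one. A gene with several promoter entries was counted when any of them held the match, and some list members had several (Ldha 2, Eno1 3). Genes called higher held it in 20.4% and genes called lower in 19.6%. Either core was found in 21 of 23 list members (91.3%) and in 61.8% of the tested genes. A match is a description of the letters and not a site of binding. The list was written to include genes known to respond to hypoxia, so its larger share is no test. Within the list, ACGTG and the call did not always go together. Pkm and Pgam1 were not called and held ACGTG, and Eno1, Tpi1 and Pdk1 were called higher and held none.

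The upstream windows of 4 called list members that hold ACGTG and overlap no annotated gene are shown as examples, 5′ to 3′ on the strand of the gene. Members without the match are not shown. Here capitals mark both cores on either strand. Hk2 lies at chr6:82774455-82774704 on the minus strand and holds ACGTG at 2 places, both on the opposite strand. Pgk1 lies at chrX:106186850-106187099 on the plus strand with 1 match on each strand. Bnip3, which encodes a mitochondrial protein of mitophagy and stood at 63, 44 and 46 against 12, 16 and 11 TPM (log2 fold change 1.89, SE 0.19, adjusted p = 3.3e-06), lies at chr7:138909507-138909756 on the minus strand with a palindrome that reads as ACGTG on both strands and 3 matches to GCGTG. Egln3, the HIF-induced prolyl hydroxylase, at 18, 15 and 16 against 4, 4 and 3 TPM (log2 fold change 1.90, SE 0.11, adjusted p = 5.43e-08), lies at chr12:54203875-54204124 on the minus strand with 1 match.
Hk2: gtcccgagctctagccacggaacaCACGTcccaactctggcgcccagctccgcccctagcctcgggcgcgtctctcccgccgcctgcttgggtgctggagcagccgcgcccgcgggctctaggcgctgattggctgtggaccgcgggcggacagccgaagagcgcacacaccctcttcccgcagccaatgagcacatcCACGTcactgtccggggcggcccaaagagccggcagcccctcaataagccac
Pgk1: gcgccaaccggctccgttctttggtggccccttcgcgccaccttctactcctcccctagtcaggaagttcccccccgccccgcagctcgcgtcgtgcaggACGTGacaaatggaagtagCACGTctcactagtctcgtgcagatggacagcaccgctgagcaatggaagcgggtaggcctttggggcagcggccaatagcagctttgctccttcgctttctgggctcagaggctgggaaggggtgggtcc
Bnip3: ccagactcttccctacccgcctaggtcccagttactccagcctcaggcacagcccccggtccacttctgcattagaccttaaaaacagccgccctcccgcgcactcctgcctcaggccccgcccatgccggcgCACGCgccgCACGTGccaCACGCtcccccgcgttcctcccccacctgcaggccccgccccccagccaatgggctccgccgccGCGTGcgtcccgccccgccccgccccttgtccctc
Egln3: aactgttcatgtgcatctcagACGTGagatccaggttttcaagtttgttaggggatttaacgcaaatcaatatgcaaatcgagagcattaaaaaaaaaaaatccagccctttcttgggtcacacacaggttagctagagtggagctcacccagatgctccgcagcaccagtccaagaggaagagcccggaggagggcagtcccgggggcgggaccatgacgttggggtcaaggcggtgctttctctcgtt

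Amino acid metabolism changed in part. Of 21 genes of serine synthesis and of the amino acid response driven by ATF4, 6 were called higher and 1 lower, or 10 higher under median-of-ratios scaling. Psat1, of serine synthesis, stood at 552, 491 and 448 against 148, 165 and 131 TPM (log2 fold change 1.74, SE 0.10, adjusted p = 5.53e-08). Mthfd1l, of mitochondrial folate metabolism, stood at 64, 61 and 59 against 18, 19 and 15 TPM (log2 fold change 1.77, SE 0.11, adjusted p = 8.56e-08). Asns, which makes asparagine, stood at 291, 215 and 213 against 83, 91 and 76 TPM (log2 fold change 1.50, SE 0.12, adjusted p = 7.5e-07). Phgdh, the first enzyme of serine synthesis, was not called at 288, 281 and 260 against 320, 312 and 316 TPM, and Atf4 itself was not called at 325, 335 and 330 against 306, 309 and 311 TPM. Slc7a11, the cystine transporter, was called lower at 3, 2 and 3 against 7, 7 and 7 TPM, a call lost under median-of-ratios scaling.

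Few genes of the cholesterol, folding, DNA methylation, cell cycle and p53 lists passed the fold threshold, though many had a low p, as had most of all tested genes. At an unadjusted p below 0.05 were 15 of 20 cholesterol, 19 of 24 cell cycle and 13 of 16 p53 genes, beside 9698 of all 13580 tested genes. At an adjusted p below 0.05 were 15, 17 and 13 of the list members, beside 9366 of all tested genes. In 18 of the 24 cell cycle genes all embryoid values lay above all control values, against 25.2% of all tested genes. These shifts were small, with a list median log2 fold change of 0.25. The 20 tested cholesterol synthesis genes had a median log2 fold change of 0.05 as deposited and 0.26 after median-of-ratios scaling. No gene of endoplasmic reticulum folding was called by limma (0 of 14), although 7 of them had an adjusted p below 0.05. Hspa5 stood at 621, 716 and 701 against 658, 655 and 634 TPM. By limma, DNA methylation genes gave 0 of 11, with 4 at an adjusted p below 0.05, and Dnmt1 stood at 178, 189 and 191 against 193, 179 and 181 TPM. In the cell cycle list 1 of 24 was called, Ccnd1, the cyclin that carries growth signals into G1, at 272, 228 and 225 against 93, 114 and 84 TPM (log2 fold change 1.31, SE 0.13, adjusted p = 3e-06). Pcna, of the replication fork, stood at 640, 591 and 610 against 543, 548 and 537 TPM and was not called. Among 16 p53 targets, 1 was called higher and 2 lower, or 4 lower without embryoid replicate 1. Trp53inp1 fell, at 30, 26 and 27 against 75, 70 and 71 TPM (log2 fold change -1.35, SE 0.12, adjusted p = 1.42e-06). Fas, a death receptor, was called higher at 7, 10 and 12 against 4, 3 and 3 TPM (log2 fold change 1.28, SE 0.25, adjusted p = 0.000835). Bax was not called at 306, 305 and 302 against 357, 354 and 364 TPM. The median of the DNA methylation list was -0.11 as deposited and 0.10 after median-of-ratios scaling, so its sign rests on the scaling. The same held for families taken by symbol after their values were seen, with 0 called by limma in either direction: complex I of the respiratory chain (47 Nduf genes, median -0.12 as deposited and 0.09 after scaling), ATP synthase (17 Atp5 genes, -0.02 and 0.20), the mitochondrial ribosome (78 Mrpl and Mrps genes, -0.06 and 0.15) and the proteasome (37 Psm genes, -0.11 and 0.10). At an unadjusted p below 0.05 the counts in these families were 25, 9, 50 and 25, in that order.

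Antigen presentation and interferon genes had 3 of 14 tested members called higher. Bst2, an antiviral membrane protein, stood at 14, 16 and 18 against 3, 3 and 3 TPM (log2 fold change 2.08, SE 0.15, adjusted p = 3.34e-07). Ifitm2 stood at 298, 348 and 359 against 121, 125 and 116 TPM (log2 fold change 1.46, SE 0.07, adjusted p = 8.31e-09). H2-K1, a class I major histocompatibility gene, overlapped at 44, 34 and 35 against 35, 38 and 34 TPM.

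Imprinted genes, expressed from 1 parental allele and known for their effects on fetal growth, had 12 of 27 tested members called higher and 1 lower, or 16 higher under median-of-ratios scaling. Igf2, the main fetal growth factor (chromosome 7, 142650768 to 142666816), stood at 834, 1365 and 1387 against 18, 18 and 17 TPM (log2 fold change 5.96, SE 0.20, adjusted p = 2.29e-09), a ratio of means of 67.7. H19, the non-coding RNA beside it, expressed from the other allele, stood at 201, 638 and 314 against 6, 8 and 7 TPM (log2 fold change 5.43, SE 0.40, adjusted p = 7.71e-07). Slc38a4, an amino acid transporter, stood at 57, 91 and 96 against 1, 0 and 0 TPM (log2 fold change 5.99, SE 0.35, adjusted p = 9.59e-08). Nnat, a neuronal membrane protein (chromosome 2, 157560078 to 157562525), went the other way, at 213, 255 and 192 against 1789, 1690 and 1842 TPM (log2 fold change -3.01, SE 0.09, adjusted p = 1.53e-10). Gnas, at 3056, 3397 and 3462 against 3232, 3367 and 3282 TPM, and Mest, at 1389, 1467 and 1459 against 1276, 1327 and 1144 TPM, were high in both groups and not called. Allele of origin was not measured, and embryoid replicate 1 was the lowest of the embryoid libraries in Igf2, H19 and Slc38a4.

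Partners of Igf2 differed as well, with 6 of 17 tested members of the IGF list called higher and 2 lower. Gpc3, a glypican of embryonic mesoderm, stood at 520, 698 and 662 against 71, 73 and 73 TPM (log2 fold change 3.09, SE 0.09, adjusted p = 1.91e-10). Binding proteins that hold IGF outside the cell went in both directions. Igfbp3 rose, at 18, 20 and 20 against 2, 2 and 2 TPM (log2 fold change 2.76, SE 0.07, adjusted p = 9.84e-11). Igfbp4 rose, at 135, 153 and 159 against 28, 29 and 26 TPM (log2 fold change 2.39, SE 0.07, adjusted p = 1.51e-10). Igfbp2 fell, at 165, 149 and 160 against 645, 691 and 657 TPM (log2 fold change -2.07, SE 0.06, adjusted p = 1.77e-10). Igfbpl1 fell, at 38, 16 and 28 against 139, 130 and 142 TPM (log2 fold change -2.36, SE 0.24, adjusted p = 7.8e-06). Igfbp5 was high in both groups and not called at 352, 505 and 435 against 292, 289 and 288 TPM.

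Homeobox genes of the Hox clusters, which set position along the trunk, were a family chosen after its values were seen. All 34 tested Hox genes were called higher, and all 34 were listed at 0 in every control, so that they passed the minimum mean only through embryoids. Hoxb9 stood at 129, 109 and 113 TPM and Hoxc10 at 59, 83 and 95 TPM, both listed at 0 in every control (adjusted p = 2.08e-13 and 1.5e-10). The non-coding RNAs Hotairm1 and Hoxb5os, transcribed within the clusters, behaved alike at 50, 75 and 62 and at 51, 79 and 64 TPM against 0 (adjusted p = 2.08e-09 and 1.75e-11); without strand in the counts their reads cannot be told apart from those of overlapping Hox genes.

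Hosts of microRNAs lay on both sides of the comparison. Mir9-3hg, the host of miR-9, a microRNA of neural progenitors (chromosome 7, 79500026 to 79534403), was among the 15 largest decreases, at 2, 1 and 2 against 93, 91 and 101 TPM (log2 fold change -5.19, SE 0.14, adjusted p = 1.1e-10). Mir17hg, annotated as host gene of the miR-17-92 cluster known for promoting growth (chromosome 14, 115044390 to 115046728), was named after its values were seen and stood at 51, 38 and 43 against 7, 10 and 9 TPM (log2 fold change 2.22, SE 0.16, adjusted p = 2.49e-07). By RefSeq coordinates, 5 of the 6 hairpins of the cluster start before this entry and 1, Mir92-1, lies inside it. Of the hairpin rows of that cluster, Mir92-1 was listed at 0 in all 6 libraries, Mir18 was called at 45, 19 and 24 against 6, 0 and 0 TPM (log2 fold change 3.89, SE 0.68, adjusted p = 0.000463), and Mir17, Mir19a, Mir19b-1 and Mir20a were tested and not called. Mir19a, at 6, 19 and 14 against 0, 13 and 0 TPM, was called higher only without control replicate 2, and Mir20a, at 40, 29 and 10 against 6, 6 and 6 TPM, only in a fit of the 6 D8 libraries alone. A hairpin is so short that few reads move its TPM far, and mature microRNAs were not measured. H19, given above, also holds the hairpin of miR-675. Mature sequences of hairpins of the cluster, of Mir9-3 and of Mir675 are printed from RefSeq with GRCm38.p6, 5′ to 3′, with the seed, bases 2 to 8, in capitals, to show that the 6 hairpins of the cluster carry 4 seeds and that none of them is the seed of miR-9-5p or miR-675-5p.
miR-17-5p: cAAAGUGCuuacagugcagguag
miR-20a-5p: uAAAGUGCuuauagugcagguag
miR-18a-5p: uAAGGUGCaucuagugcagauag
miR-19a-3p: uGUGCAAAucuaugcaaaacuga
miR-19b-3p: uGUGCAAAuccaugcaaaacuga
miR-92a-3p: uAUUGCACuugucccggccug
miR-9-5p: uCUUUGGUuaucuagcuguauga
miR-675-5p: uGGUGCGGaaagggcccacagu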

How the data were processed

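RNA was isolated with RNeasy Micro columns, libraries were made with an NEB Ultra DNA kit, and single-end reads came from a NextSeq500. By the submitters' processing notes and the methods, the authors aligned reads to mm10 with STAR 2.6.1a, used SAMtools 0.1.20, counted with featureCounts and tested with DESeq2. No source used here says whether counting used strand. The deposited table holds 1 score per gene and library: whole numbers that sum to between 997897 and 998433 per library, which the authors appear to have made by rounding TPM. They were treated as TPM and not as counts, so no count test was run and depth is unknown.

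Values were tested with limma 3.58.1 in R 4.3.3 (statmod 1.5.0) on log2(TPM + 1), a scale that understates changes of low genes. A model of 4 group means over all 12 libraries, with trended and robust empirical Bayes variances, gave the contrast of embryoids and controls at D8, two-sided, with Benjamini-Hochberg adjustment over 13580 genes. The fit was tested on simulated data. Lists were counted without 35 genes of the study's figures. The genes and lists were chosen with earlier results of these data known.

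Genes named were the 15 largest changes in each direction among called genes whose groups did not overlap, the 10 largest differences in mean in each direction, and, for every list, at most 3 called members per direction with at most 2 uncalled ones. Named after their values were seen were Bnip3, Egln3, Hk1, Hk2, Gpi1 and Ldhb, the Cox and Mir genes and Mir17hg, and members listed at 0 or too low to test. So were Col11a1, Cyr61, Ankrd1, Ctgf, Epor, Pgam1, Tpi1 and Pdk1. The replicates are described as independent, and replicate numbers did not pair the samples: deviations of samples with equal numbers correlated at 0.01, 0.04 and -0.05. Alternatives were other pseudocounts, filters, scalings and fits, a replicate block, and leaving out each D8 library. Promoters and miRNAs came from RefSeq for GRCm38.p6. Some items are not reported here.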

Additional observations from a re-analysis of the deposited data

Results flagged for a closer look

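For 342 of the 13580 tested genes, the difference between embryoids and controls was not the same at D8 as at D7 (interaction term in the limma fit, adjusted p below 0.05 and a change above 1 in size). Of 206 named genes checked for this, 31 are among them, and many of the 31 were named for the size of their D8 change. Values below are the D8 difference minus the D7 difference, in log2 units of TPM + 1.

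The D8 difference minus the D7 difference was positive for 19 of these genes. The change was 2.78 for Col1a2, 1.85 for Col3a1, 1.75 for Col1a1, 1.07 for Nid2, 2.48 for Acta2, 1.7 for Myl9, 1.06 for Des and 1.13 for Mylpf. It was 2.76 for Pf4 and 1.19 for Fcer1g. The muscle-type cytochrome oxidase genes changed by 2.39 (Cox6a2), 1.97 (Cox8b), 1.35 (Cox7a1) and 1.16 (Cox4i2). Other increases of the difference were in Apoe (1.2), Ndnf (1.3), Dkk2 (1.11), Igfbp3 (1.22) and Fas (2.05).

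The remaining 12 genes had a negative value. The change was -4.15 for Slc14a2, -2.69 for Tbr1, -2.69 for Calb2, -2.64 for Trp73, -1.73 for Emx1, -1.55 for Mcidas, -1.11 for Gmnc, -1.33 for Slc17a6 and -1.15 for Slc6a11. Lmo2 changed by -2.04, Id1 by -1.12 and Grhl3 by -1.01.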

How the results depend on the processing

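No called gene was called in the opposite direction under any of the alternatives. The number of genes called higher was 671 with a pseudocount of 5, 880 with a minimum mean of 5, where 10976 genes were tested, and 3262 with no minimum fold. The number of genes called lower was 663 with a pseudocount of 5 and 6105 with no minimum fold. Over all tested genes, log2 fold changes had a median of -0.18 and -0.14 with pseudocounts of 0.5 and 5, -0.14 with no filter, -0.2 with a minimum mean of 5, 0.02 under median-of-ratios scaling and -0.07 under quantile normalization. Leaving out 1 D8 library gave 1338 to 1423 genes higher, 1274 to 1411 lower and a median of -0.18 each time. Under median-of-ratios scaling 1414 of the genes called higher and 998 of those called lower kept their call. With a replicate block, 1412 genes were called higher and 1355 lower, of which 1411 and 1353 were also called without it. With a pseudocount of 5 the called members fell from 17 to 11 in the mesenchymal matrix list, from 11 to 3 in the erythroid list, from 11 to 5 in coagulation, from 14 to 7 in simple epithelium and, in the lower direction, from 13 to 6 in motile cilia and from 11 to 6 in Cajal-Retzius neurons, and under quantile normalization the erythroid list had 7. At low TPM the rounding limits what can be told, and depth is unknown.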

Other observations

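Protocadherins are adhesion proteins of neurons. Of 55 tested genes with a Pcdh symbol, 27 were called lower and 2 higher, with a median log2 fold change of -0.87, and 15 were called lower under median-of-ratios scaling. The clustered genes share exons, so reads may have been split among them, and the values of single members are uncertain.

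Subunits of respiratory complexes III and IV were not called apart from 4 that are known from muscle, heart or lung. Cox6a2 stood at 17, 11 and 7 TPM, Cox8b at 3, 4 and 2 TPM and Cox4i2 at 10, 6 and 6 TPM in embryoids, and each was listed at 0 in every control. Cox7a1 stood at 15, 14 and 9 against 3, 6 and 4 TPM (log2 fold change 1.37, SE 0.26, adjusted p = 0.000636 by limma). The family was 24 tested genes chosen by symbol after the values were seen.

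By their medians, chromosomes 6 and 8 stood apart from the others among the 13348 tested genes of known chromosome. The median log2 fold change was 0.00 over 659 genes of chromosome 6, with 112 called higher and 54 lower, and 0.03 over 714 genes of chromosome 8, with 80 higher and 50 lower. Over all tested genes 10.4% were called higher and 10.0% lower. The counts did not single out chromosome 8, since chromosome 15 had 80 of 530 genes called higher and 46 lower. Medians of every other chromosome from 1 to 19 and X lay between -0.26 and -0.12. At D7 the medians were 0.00 and 0.01 against -0.26 to -0.15. Each of the 3 D8 embryoid libraries set against the control mean gave 0.02, 0 and 0 for chromosome 6 and 0.03, 0.03 and 0.03 for chromosome 8. Copy number was not measured.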
